A study of Zea mays with 6 samples.

Results

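The plastid operon rps2-atpI-atpH-atpF-atpA of maize was followed by the plastid IDs ZemaCp016 to ZemaCp020, which are consecutive in the plastid gene order. Of these 5 genes, 3 had values in the deposited tables, namely atpI (ZemaCp017), atpH (ZemaCp018) and atpF (ZemaCp019), among 33953 features in all. The genes rps2 (ZemaCp016) and atpA (ZemaCp020) were not analysed here. The 3 measured genes all reached the minimum level for testing, a mean of 1 FPKM over the 6 libraries.

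Leaf RNA of the maize inbred line KN5585 was sequenced from control plants (3 libraries) and from plants carrying a transgene for the synthesis of poly-γ-glutamic acid, which is a glutamate polymer (3 libraries). Both groups were at the 3-leaf stage and had gone 5 days without water, until the soil held 9.8% water, so that the comparison is between genotypes under the same stress. Well-watered plants and the transcript of the transgene were not analysed here. The labels name neither the promoter of the transgene nor the number of independent lines, nor do they tell whether plants were pooled. Nothing in the labels ties the libraries of a genotype to separate plants, and the p-values below therefore rest on a spread between libraries that may be technical.

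The plastid ATP synthase makes ATP from the proton gradient that photosynthetic electron transport builds across the thylakoid membrane. Its membrane part includes subunit a (atpI), which forms the proton path, a ring of subunit c (atpH), and subunit b (atpF), which belongs to the stalk that holds the catalytic head. Subunit alpha of the head is the product of atpA, and rps2 encodes protein S2 of the small subunit of the plastid ribosome. The operon is transcribed into long RNAs that are cut between the genes, and in maize a pentatricopeptide repeat protein binds between atpI and atpH and stabilises the ends produced there. The gene atpF carries a group II intron.

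Values are FPKM as the authors deposited them, that is, fragments per length of gene and per number of mapped fragments. Summed FPKM lay between 1208094 and 1238707 per library, and the steps between low values of the same gene gave relative depths from 0.962 to 1.03. The search for these steps covered only small differences in depth, so a large one could not have shown. The absolute depth is unknown. Plastid features, with identical copies counted once, took up 0.175 to 0.201% of all FPKM in the control libraries, against 0.450 to 0.518% in the transgenic ones. Leaf identity could be read only from organelle genes, because no nuclear ID had a symbol. Among these, psbA, the D1 protein of photosystem II, lay at 153 to 166 FPKM in control libraries but at 0.41 to 1.85 FPKM in transgenic ones, whereas psaA of photosystem I lay at 3.58 to 4.62 and 33.9 to 43.4 FPKM. The mitochondrial gene cox1 lay at 18.1 to 21.9 and at 0.49 to 0.90 FPKM. All libraries were made from total RNA with an mRNA kit. Whether organelle RNA was captured to a different degree in the groups, or from gene to gene, was not tested. In bulk leaf RNA more plastids, more cells of a type and more transcript per cell cannot be told apart.

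The measured operon genes stood at very different levels. The FPKM of atpF was far above that of atpH and atpI in every library. In transgenic leaves atpF and atpI rose while atpH did not pass the test. The tests of the ratios between neighbouring genes, given below, could not reach the threshold with so few libraries. They therefore cannot decide whether the genes changed by different amounts. The ratio of atpF to atpH was higher in every transgenic library than in any control library. The ratios of atpH to atpI and of atpF to atpI overlapped between the groups.

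Within each library the order of the levels per length was the same, atpI below atpH below atpF, and the ranges of the 3 genes did not overlap within a genotype. This order follows the gene order from atpI to atpF. The gene atpF made up 91.5 to 97.6% of the summed FPKM of the 3 genes in control libraries and 97.8 to 98.6% in transgenic libraries. Among 86 plastid features it ranked 8 to 10 in control and 3 in each transgenic library, while atpH ranked 40 to 63 and 44 to 51, and atpI 69 to 72 and 56 to 62. How gene length was corrected for is not given in the sources used here. Its effect on the values of the short gene atpH was not tested.

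**Figure D1:**
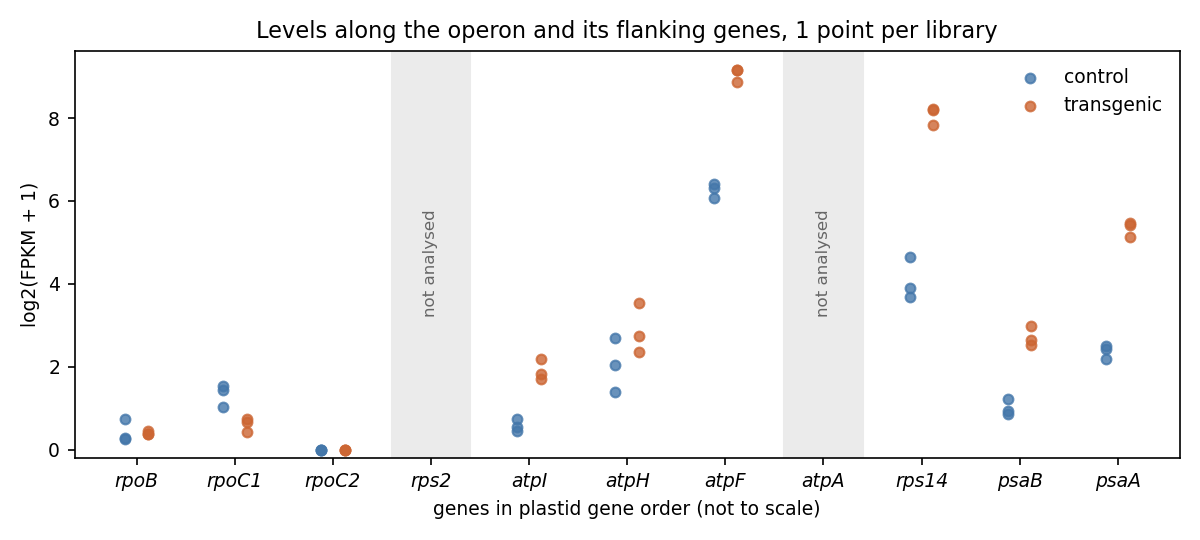
Level of each gene, as log2(FPKM + 1), in plastid gene order from rpoB to psaA, with 1 point per library (blue control, orange transgenic, n = 3 per group). Levels climb from atpI to atpF in both groups, rpoC2 lies at 0 in every library, and the grey bands mark rps2 and atpA, which were not analysed.

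The gene atpF, for subunit b, stood at 83.3, 66 and 77.8 FPKM in control replicates 1, 2 and 3. In transgenic replicates 1, 2 and 3 it stood at 573.6, 568.6 and 464.9 FPKM. Every transgenic library was therefore far above every control library, and the replicates of each genotype lay close together, with a coefficient of variation of 11.7% in control and 11.5% in transgenic leaves. The mean went from 75.7 ± 8.86 to 535.7 ± 61.4 FPKM (SD, n = 3 per group), a 7.07-fold difference. On the log2(FPKM + 1) scale the gene rose by 2.81 (SE 0.11; limma with Benjamini-Hochberg adjustment over all tested features, adjusted p = 3.54e-08).

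The gene atpI, for subunit a, ranked low by FPKM among the 86 plastid features, at 69 to 72 in control and 56 to 62 in transgenic libraries. It stood at 0.47, 0.67 and 0.37 FPKM in control replicates 1, 2 and 3, and at 2.56, 2.26 and 3.53 FPKM in transgenic replicates 1, 2 and 3. The groups did not overlap, and the lowest transgenic value exceeded the highest control value. The mean went from 0.503 ± 0.153 to 2.78 ± 0.664 FPKM (SD, n = 3 per group), a 5.53-fold difference. The gene rose by 1.32 on the log2(FPKM + 1) scale (SE 0.22; limma, adjusted p = 0.000506), a scale that understates the change of a gene at this level, and the difference was 2.26 with a pseudocount of 0.1 (limma, adjusted p = 0.000859).

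The gene atpH, for the ring subunit c, stood at 1.60, 5.46 and 3.11 FPKM in control replicates 1, 2 and 3. In transgenic replicates 1, 2 and 3 it stood at 5.64, 10.5 and 4.13 FPKM. The groups overlapped, because control replicate 2 lay above transgenic replicate 3, and the highest control value was 3.41 times the lowest. The means were 3.39 ± 1.95 and 6.77 ± 3.35 FPKM (SD, n = 3 per group), and the difference of 0.84 on the log2(FPKM + 1) scale did not pass the test (SE 0.38, 95% interval -0.03 to 1.70; limma, adjusted p = 0.0753). The call depended on the scaling, on single libraries and on the use of the replicate number as a block. With that block, a pairing that no label gives, atpH passed (limma, adjusted p = 0.0164). It passed with median-of-ratios scaling (limma, adjusted p = 0.0241), with quantile normalization (0.0365), without control replicate 2 (0.02, difference 1.16) and without transgenic replicate 3 (0.0477, difference 1.09), while the difference was 0.51 without control replicate 1 and also 0.51 without transgenic replicate 2.

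**Figure D2:**
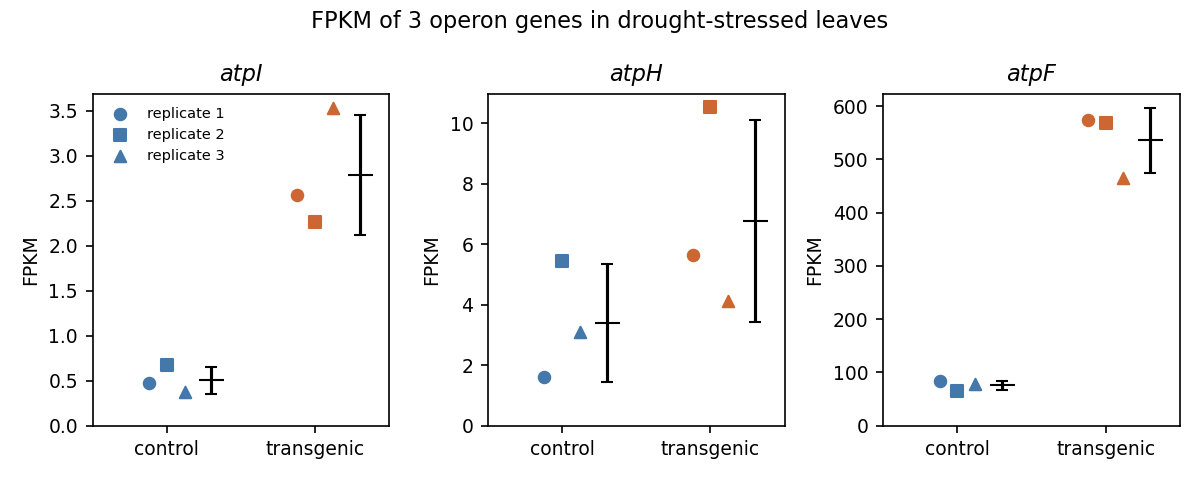
FPKM of atpI, atpH and atpF in each control (blue) and transgenic (orange) library, on separate linear axes that start at 0, with the mean and SD of 3 libraries as black bars. The groups are apart for atpI (0.37 to 0.67 against 2.26 to 3.53 FPKM) and atpF, and overlap for atpH.

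Of the 3 genes, 2 were called higher, where 27.0% of all 22200 tested features were called higher and 45.9% lower (limma, adjusted p under 0.05). The groups did not overlap, with transgenic higher, for the same 2 genes and for 28.0% of tested features. The median difference over all tested features was -0.31, so that relative to it atpF, atpI and atpH lay at 3.11, 1.63 and 1.14. Among tested features 96.1% had a lower log2 fold change than atpF, 86.5% a lower one than atpI and 80.4% a lower one than atpH. That median moved to 0.03 with median-of-ratios scaling and to -0.08 with quantile normalization, and atpF and atpI were called higher under both, as were 35.8% and 32.6% of tested features.

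Plastid features as a whole also moved. Of 66 tested plastid features, 41 were called higher and 11 lower, with a median difference of 1.07. Summed FPKM of plastid features was 2.69-fold higher in transgenic leaves and the summed FPKM of atpI, atpH and atpF was 6.85-fold higher, at 79.6 ± 6.80 and 545.2 ± 63 FPKM (SD, n = 3 per group). The 3 genes together held 3.53, 3.37 and 3.67% of plastid FPKM in the control replicates and 9.21, 9.13 and 8.47% in the transgenic replicates. The groups did not overlap (exact permutation test, two-sided, p = 0.1, the smallest p that 3 against 3 libraries can give). Nearly all of this share was atpF, which held 3.34 ± 0.232% of plastid FPKM in control and 8.78 ± 0.396% in transgenic leaves (SD, n = 3 per group).

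The share of plastid FPKM went from 0.0225 ± 0.00775 to 0.0464 ± 0.0148% for atpI, with no overlap, and from 0.154 ± 0.0951 to 0.11 ± 0.0489% for atpH, with overlap (SD, n = 3 per group; exact permutation test, two-sided, p = 0.1 and 0.7). When each library was scaled to the same plastid FPKM, atpF was still called higher, by 1.39 (limma, adjusted p = 4.15e-07). Under that scaling 9.36% of tested features were higher. On the same scale atpI was at 0.59 and no longer passed (adjusted p = 0.0634), and atpH turned to -0.32 (adjusted p = 0.471, both limma).

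Ratios within a library do not depend on the scaling between libraries. The FPKM of atpF was 52.1, 12.1 and 25.0 times that of atpH in control replicates 1, 2 and 3, and 101.7, 54 and 112.6 times that of atpH in the transgenic replicates. All transgenic ratios lay above all control ratios, although transgenic replicate 2 and control replicate 1 lay close together. On the log2 scale with a pseudocount of 0.1, the ratio was 4.60 ± 1.02 in control and 6.39 ± 0.56 in transgenic leaves (SD, n = 3 per group), a difference of 1.79 (exact permutation test, two-sided, p = 0.1, adjusted 0.2 over the 2 neighbour pairs that could be formed).

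The FPKM of atpH was 3.40, 8.15 and 8.41 times that of atpI in the control replicates and 2.20, 4.66 and 1.17 times that of atpI in the transgenic replicates. These ranges overlapped. The log2 ratio was 2.40 ± 0.71 and 1.17 ± 0.98 (SD, n = 3 per group), a difference of -1.23 (exact permutation test, two-sided, p = 0.2, adjusted 0.2). With 3 libraries per group neither ratio could reach the threshold of 0.05. The ratio of atpF to atpI, formed after the values were seen and given without a test, was 177.3, 98.5 and 210.4 in the control replicates and 224.1, 251.6 and 131.7 in the transgenic replicates, and the groups overlapped.

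**Figure D3:**
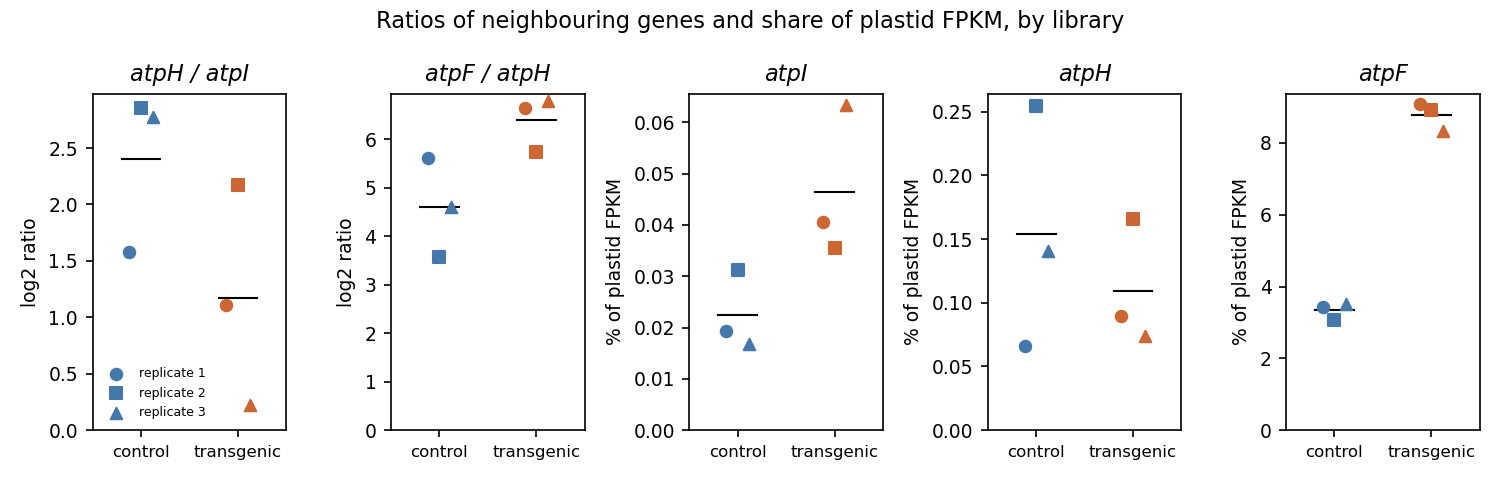
Log2 ratio of atpH to atpI and of atpF to atpH (pseudocount 0.1), and percent of plastid FPKM held by each gene, by library (blue control, orange transgenic, symbols for replicates, lines for means of 3). The ratio of atpF to atpH and the shares of atpI and atpF are higher in all transgenic libraries, whereas the ratio of atpH to atpI and the share of atpH overlap.

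Around the operon, genes on either side were not alike. Upstream lie rpoB, rpoC1 and rpoC2, which encode subunits of the plastid-encoded RNA polymerase, and in the 3 of them levels were at most 1.91 FPKM in any library. The gene rpoC2, which borders rps2, was listed at 0 in all 6 libraries. The gene rpoB, at 0.19, 0.21 and 0.67 FPKM in control and 0.29, 0.30 and 0.36 FPKM in transgenic replicates, was under the minimum and did not pass without a filter (limma, adjusted p = 0.898). The gene rpoC1 fell by 0.72 (SE 0.23; limma, adjusted p = 0.0207), from 1.54 ± 0.458 to 0.537 ± 0.169 FPKM, but this call was lost without transgenic replicate 2 (adjusted p = 0.0812).

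Downstream of atpA lie rps14, psaB and psaA, which belong to another operon that is transcribed in the opposite direction, and all 3 were called higher. So were 27.0% of all tested features and 41 of 66 tested plastid features. The gene rps14, for a protein of the small ribosomal subunit, went from 16.6 ± 6.41 to 272 ± 38.1 FPKM, a difference of 4.01 (SE 0.22; limma, adjusted p = 3.9e-07). The photosystem I core genes psaB and psaA differed by 1.72 (SE 0.20) and 2.97 (SE 0.14), with limma adjusted p of 6.29e-05 and 1.46e-07. The use of strand in counting is not stated in the labels, so reads from the opposite strand cannot be told apart. None of the 3 operon genes overlaps another gene in the reference gene table.

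The other plastid genes of the ATP synthase, atpB for the catalytic subunit beta and atpE for subunit epsilon, form a separate operon. The gene atpE stood at 1.45, 0 and 1.08 FPKM in the control replicates and at 48.4, 54.7 and 51.0 FPKM in the transgenic replicates. It rose by 4.93 (SE 0.30; limma, adjusted p = 7.1e-07), and it overlaps atpB in the reference gene table. The gene atpB stood at 0.93, 0.10 and 0.26 FPKM in control and at 1.91, 2.57 and 0 FPKM in transgenic replicates, under the minimum for testing, and without a filter it did not pass (limma, adjusted p = 0.307). Without transgenic replicate 3, the library at 0, atpB reached the minimum and was called higher as well. It also reached the minimum with median-of-ratios scaling, with quantile normalization and without control replicate 2 or control replicate 3. In none of these was it called. Of the 5 plastid ATP synthase genes measured, atpF alone made up 91.4 to 94.9% of the sum in control libraries, against 88.8 to 90.7% in transgenic ones.

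The mitochondrial ATP synthase, built on the same plan, went the other way. All 5 of its measured genes were called lower, with a median difference of -2.65, where 45.9% of all tested features were called lower. Mitochondrial features, with identical copies counted once, took up 0.172 to 0.197% of all FPKM in control libraries and 0.124 to 0.160% in transgenic ones. The mitochondrial gene nad4 was lower as well, at 1.85 to 2.29 against 0.14 to 0.43 FPKM, as was cox1. How many other mitochondrial features were called lower was not analysed here. The gene atp9, whose product forms the ring of subunit c in the mitochondrion as that of atpH does in the plastid, went from 29.4 ± 4.31 to 4.12 ± 2.15 FPKM, a difference of -2.65 (SE 0.28; limma, adjusted p = 2.65e-05). The gene atp6, the counterpart of atpI, went from 36.5 ± 4.09 to 2.61 ± 0.363 FPKM, atp8 from 11.6 ± 2.22 to 0.707 ± 0.412 FPKM, and atp1-a1, counted once with its identical copy, from 2.58 ± 0.512 to 0.187 ± 0.0569 FPKM. For a gene product like that of rps2, the mitochondrial rps2B fell by 1.99 (SE 0.21; limma, adjusted p = 2.63e-05), from 9.79 ± 2.25 to 1.69 ± 0.335 FPKM, and it overlaps orf261. The mitochondrial rps2A, at 1.84 ± 0.872 and 1.10 ± 0.289 FPKM, did not pass (limma, adjusted p = 0.22), and was called lower without control replicate 2 (adjusted p = 0.0339).

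**Figure D4:**
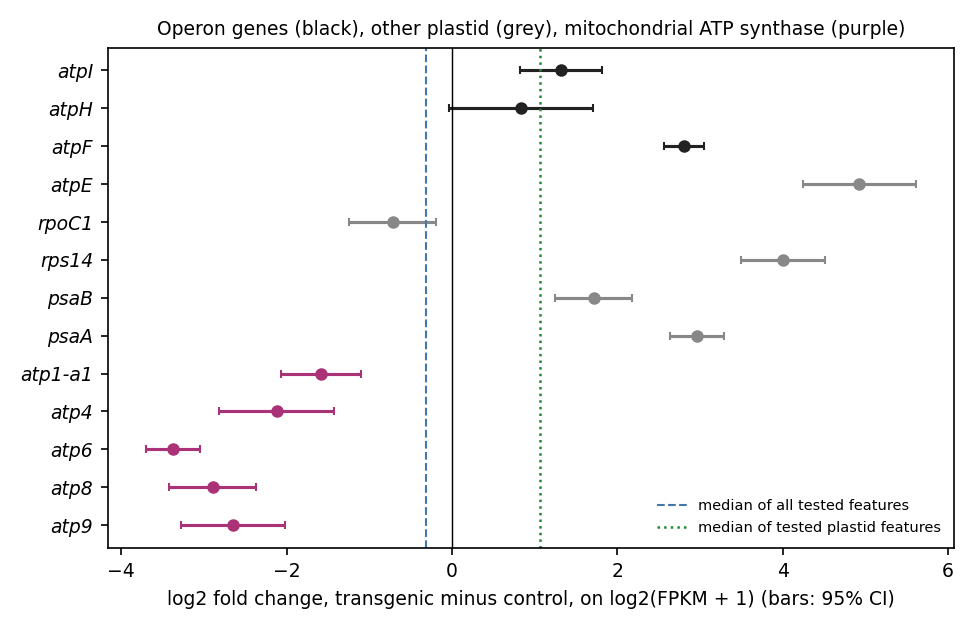
Difference of transgenic from control leaves in log2(FPKM + 1), with 95% intervals from limma, for the operon genes (black), other plastid genes (grey) and the mitochondrial ATP synthase genes (purple). The blue dashed line is the median of all tested features at -0.31 and the green dotted line that of tested plastid features at 1.07; the interval of atpH spans 0, and all mitochondrial intervals lie below 0.

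Other plastid genes for proteins of the small ribosomal subunit, the class that rps2 belongs to, were called higher in 9 of 10 cases and lower in 1, with a median difference of 2.23. Of all tested features 27.0% were higher and 45.9% lower, and of 66 tested plastid features 41 were higher. Besides rps14 they included rps3 from 78.8 ± 12 to 405.4 ± 40.5 FPKM, rps7 from 193.1 ± 13.6 to 456.1 ± 28.4 FPKM and rps4 from 12.8 ± 3.66 to 82.4 ± 7.50 FPKM. These values say nothing of rps2 itself.

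Other plastid protein genes with an intron, as atpF has, were split. Of 7 tested, 3 were called higher, 3 lower and 1 did not pass, with a median difference of 0.43, where 27.0% of all tested features were higher and 45.9% lower. The tally turned to 4 higher and 2 lower under either quantile normalization or median-of-ratios scaling, as ndhB passed and petB did not. The ribosomal protein gene rpl16 rose by 2.22 and ycf3, for an assembly factor of photosystem I, by 2.04. The gene petD, for subunit IV of the cytochrome b6f complex, fell by 2.06, and rps16 fell by 1.17. The adjusted p of these 4 genes lay between 7.75e-07 and 0.000407 (limma). Reads from unspliced and spliced RNA are not separated in FPKM per gene.

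The profiles of the operon genes over the 6 libraries were compared with 68 other named plastid genes, by the root mean square difference of log2(FPKM + 1) after subtracting each gene's own mean. The profile nearest to that of atpF was psaA at 0.10, followed by rpl14 at 0.12, and 4 of 22077 tested nuclear features were nearer than psaA. The profiles nearest to that of atpI were rps7 at 0.22 and ndhK at 0.24, both at far higher FPKM than atpI. Of the nuclear features, 524 were nearer than rps7. For atpH the nearest profiles were ndhH at 0.34 and rpl2 at 0.40, with 35 nuclear features nearer than ndhH. The mean of ndhH was under the minimum for testing. Between the operon genes the measure was 0.63 for atpI and atpH, 0.80 for atpI and atpF and 1.13 for atpH and atpF. For all 3 operon genes the order of these values depends on the pseudocount, which shrinks the difference of a gene near 0.5 FPKM such as atpI. With a pseudocount of 0.1, an alternative added after the values were seen, atpI was nearer to atpF, at 0.49, than to rps7 at 0.61 or ndhK at 0.53. With it, atpH was nearer to rpl2, at 0.47, than to ndhH at 0.85. The gene atpF was then nearer to rpl14, at 0.17, than to psaA at 0.20. Only the genes named here were compared with that pseudocount. On that scale the genotypes differed by 2.26 for atpI, 2.82 for atpF, 1.24 for rps7 and 1.44 for ndhK. With 2 groups of libraries this measure mostly reflects the size of the difference between genotypes.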

How the data were processed

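Per the file headers, each of the 6 deposited files holds the authors' FPKM of 1 library for the same 33953 features, rounded to 2 decimals. Library preparation from 1.3 µg of total RNA is given by the labels. Aligner, counting method, annotation and strand setting are not stated in the labels, and the processing notes name mouse builds that do not match maize IDs, so no coordinates are given. Symbols, gene order and overlaps came from the reference gene table of Zm-B73-REFERENCE-NAM-5.0, matched by locus tag for 251 of 251 organelle and 0 of 33702 nuclear IDs. Groups came from the genotype label. Features with a mean of at least 1 FPKM were compared on log2(FPKM + 1) with limma 3.58.1 in R 4.3.3 (mean-variance trend), two-sided, Benjamini-Hochberg adjustment over 22200 features, threshold 0.05. The fit was tested on simulated data in which few features were changed, as many raised as lowered. A shift over most features, as in these data, was not tested. Ratios and shares used exact permutation tests (scipy 1.17.1). Of the 4 neighbour ratios planned, 2 could be formed. The rule for named genes took the operon and flanking genes, atpB and atpE, up to 4 members per other list with the lowest p past the threshold, and the 2 plastid profiles most like each operon gene. Members and lists were chosen with earlier results of these data known. Counts of reads were not analysed here, so no counting intervals are given.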

Additional observations from a re-analysis of the deposited data

How the results depend on the processing

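The numbers of features called higher (4613 to 7947) and lower (7597 to 10748) stayed within 1.5 times of the main counts under median-of-ratios, quantile and total scaling and under the other pseudocount, filters, variance model, left-out libraries and block, though lower calls were 10199 as deposited, 7597 after median-of-ratios scaling and 8484 after quantile normalization. Scaling to the same plastid FPKM per library, planned for the operon genes alone, left 2142 features higher. The gene atpF kept its direction and call under all of these, plastid scaling included, and with a 2-fold change required. So did atpI, except that it was under a minimum mean FPKM of 5 and that with the same plastid FPKM per library its difference was 0.59. For atpH the difference was 1.14 with median-of-ratios scaling, 1.03 with quantile normalization and -0.32 with the same plastid FPKM per library. Leaving out 1 library gave 0.51 to 1.16 for atpH. With the replicate number as a block atpH passed, at 0.84 (limma, adjusted p = 0.0164). The main fit had no block because no label pairs the replicate numbers. Over all tested features, same-numbered control and transgenic libraries did not deviate together (correlations of 0.006, -0.001 and 0.015). With the block, 5935 features were higher and 10087 lower. The count of lower genes upstream of the operon, 1, was 0 with median-of-ratios scaling, with the same total FPKM per library and with a minimum mean FPKM of 5, since rpoC1 was then not tested, and 0 to 1 with 1 library left out. Over left-out libraries, the count of lower mitochondrial rps2 genes was 1 to 2 and that of higher ATP synthase genes outside the operon 1 to 2. Of 196 counts over the gene lists under alternatives, 188 stayed within 1.5 times of the main count. Several main counts were 0, for which 0 again was taken as within, and steps from 3 to 2 or to 4 also were. This tally therefore says little of how stable the lists were. Of 367 values of 27 other genes, 355 kept direction and call and 0 reversed; petB, lower by 0.64 in the main setting, lost its call most often. Differences of the neighbour ratios and of the operon's share of plastid FPKM kept their direction under other pseudocounts, denominators and left-out libraries. The low FPKM of atpI and atpH and an unknown depth limit what can be said of their levels.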
